A study of Canis lupus familiaris with 33 samples.

Results

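The DNA replication genes examined here were 38 genes that license origins, unwind and copy DNA, supply nucleotides, or guard and repair the moving fork. They were chosen by gene symbol, and 33 of the 38 were found among the 25096 genes of the TMM-normalized table, 12202 of which carry a symbol; CDC45, GINS1, POLE2, PRIM1 and E2F1 were not analysed here. The copy of the table used here is cut at its end, so genes listed after the cut were not seen. RNA from 29 invasive urothelial carcinomas (iUC) of pet dogs was sequenced beside RNA from 4 normal bladder samples of other dogs (labelled A to D). Each tumor came by cystoscopic biopsy from its own untreated dog, was high grade, and was judged by histology to be almost wholly epithelial. The normals were mucosa dissected from the bladders of dogs euthanized for disease outside the bladder, and no age or breed was used. All libraries were depleted of ribosomal RNA and run in 1 batch.

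Each value below is a normalized expression value on the log2 scale, given relative to the gene's own median in the 33 samples. A value of 0 is therefore the gene's middle, 1 unit is 2-fold, and a level of 1 gene cannot be set against that of another. Total counts per sample cannot be read from such values, so the depth behind each value is unknown here. In these tables many genes have samples that share 1 lowest value (equal within 0.0001), which was read as no detected signal, although no counts were at hand to check that reading. None of the 33 genes did, and all 33 passed the filter on low values.

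Before S phase, the origin recognition complex (ORC), CDC6 and CDT1 load the ring of MCM proteins onto origins. At S phase entry, CDC45 and the GINS proteins turn that ring into a moving helicase, polymerases copy the strands, and PCNA clamps them to DNA. Most of these genes are transcribed under E2F factors and are low in resting cells such as those of normal urothelium, a tissue that renews slowly.

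The source label of the normals was urothelial cells, and marker genes of smooth muscle and fibroblasts were high in them. All 7 smooth muscle markers in the table were lower in tumors, and their mean ran from 4.27 to 6.19 in the normals against -1.43 to 3.25 in the tumors. Of 6 fibroblast markers, 5 were lower in tumors, with means of 2.13 to 2.75 in the normals and -2.35 to 2.19 in the tumors. Of 2 nerve markers, 1 was called lower. No marker of endothelium (5 genes), T cells (7) or macrophages (5) was called lower, and 1 macrophage marker was called higher. Over all genes tested, the median difference between tumor and normal was -0.84. The mean of 8 urothelial markers was -0.91, -0.81, -0.80 and -2.17 in normals A to D and ran from -1.38 to 0.73 in the tumors. Of these 8, 5 were called higher in tumors and 3 were not called, from EPCAM (2.18 ± 0.36, adjusted p = 2.31e-06), an epithelial adhesion molecule, to UPK1A (0.03 ± 0.54, adjusted p = 0.962), a uroplakin of the bladder lining, both named after their values were seen. Normal D was thus the lowest of all samples in urothelial markers and the highest in muscle markers, and normal A had the least muscle signal of the normals. The normals also had fewer genes at a shared lowest value (755 to 1019 genes, against 3699 to 8175 in a tumor). In bulk tissue, fewer cells of a type and less RNA per cell cannot be told apart. The part of tissue makeup in the differences below was not tested beyond a rescaling on urothelial markers.

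Replication genes were higher in the tumors, with at least 1 gene called in each role group. With limma, 27 of the 33 genes were called higher in tumors (adjusted p of at most 0.05 and at least 2-fold) and 0 were called lower; over all 24471 genes tested, 10.7% were called higher. At adjusted p alone, 31 of 33 were higher, against 22.9% of all genes. The median difference between tumor and normal was 1.67 on the log2 scale over the 33 genes and -0.84 over all genes tested. In 14 genes every tumor lay above every normal, a pattern seen in 7.63% of all genes. These were MCM2, MCM3, MCM6, MCM7, POLA2, PCNA, RFC2, FEN1, LIG1, RPA2, RRM2, TK1, CHAF1A and TIMELESS. The shares and the median over all genes include genes with samples at a shared lowest value, which none of the 33 has. That background was not matched to the 33 genes for detection.

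**Figure D1:**
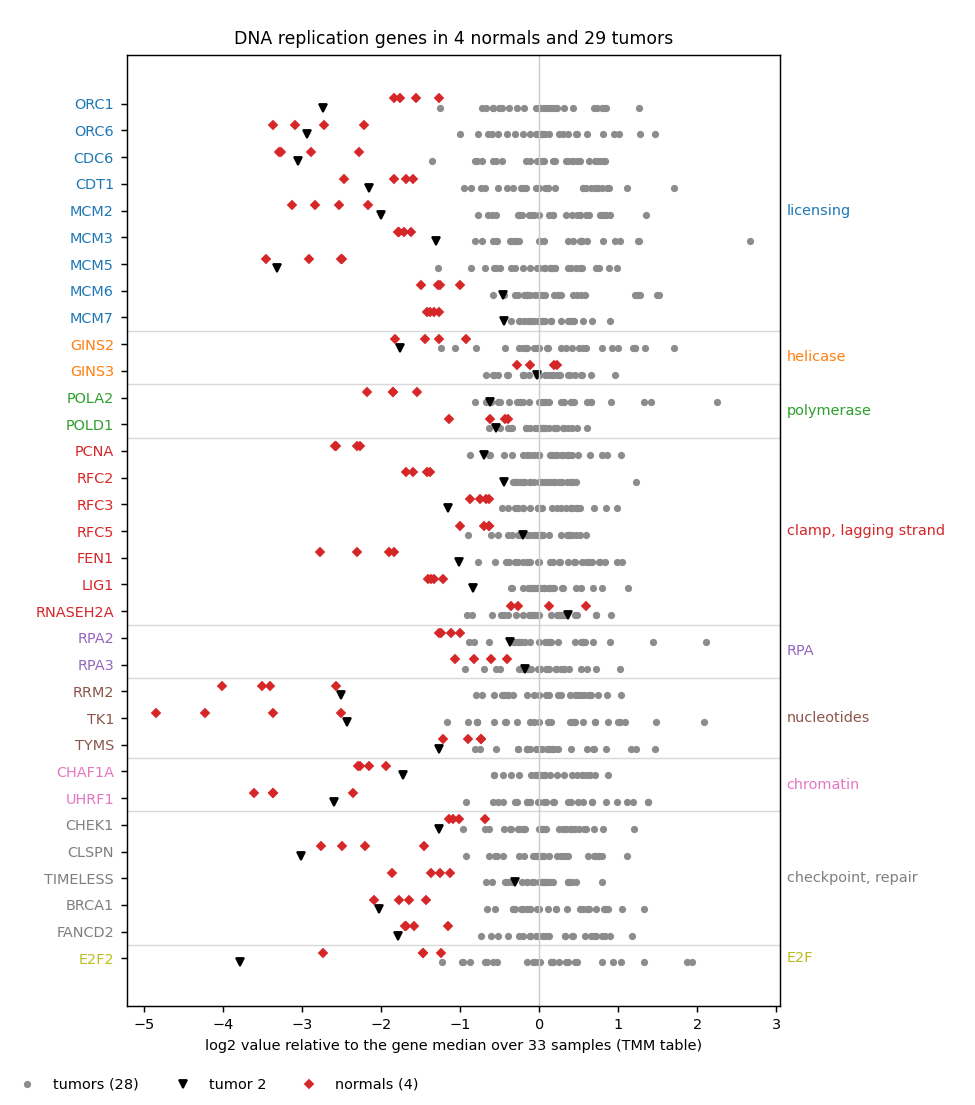
Log2 values of the 33 DNA replication genes relative to each gene's median over 33 samples (TMM-normalized table), with 4 normals as red diamonds, 28 tumors as grey points and the tumor labelled 2 as a black triangle, and with genes grouped by role. In 14 genes all tumors lie to the right of all normals, GINS3 and RNASEH2A overlap widely, and tumor 2 sits among or near the normals in many genes.

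The size of the rise depended on the scale. In the DESeq-normalized table every gene's difference was lower by 0.29 to 0.30, and 25 of 33 were called higher, against 5.62% of all genes; CHEK1 and TYMS then fell short of 2-fold. A harsher scale was added after the data were seen, in which each sample was centred on the mean of its 8 urothelial markers. It lowered every difference by 1.17 to 1.18 and the median over all genes to -2.02; since these markers differed among themselves between the groups, the size of that shift depends on which of them are averaged. On that scale 11 of 33 were still called higher, against 0.989% of all genes, and the median over the 33 genes was 0.49. These 11 were TK1, CDC6, MCM5, CLSPN, ORC6, RRM2, FEN1, MCM2, UHRF1, CHAF1A and PCNA. GINS3 and RNASEH2A were called lower, against 63.8% of all genes called lower. Without normal D, which has the lowest urothelial marker mean, that scale called 14 higher and 0 lower, against 1.42% and 54.5% of all genes.

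**Figure D2:**
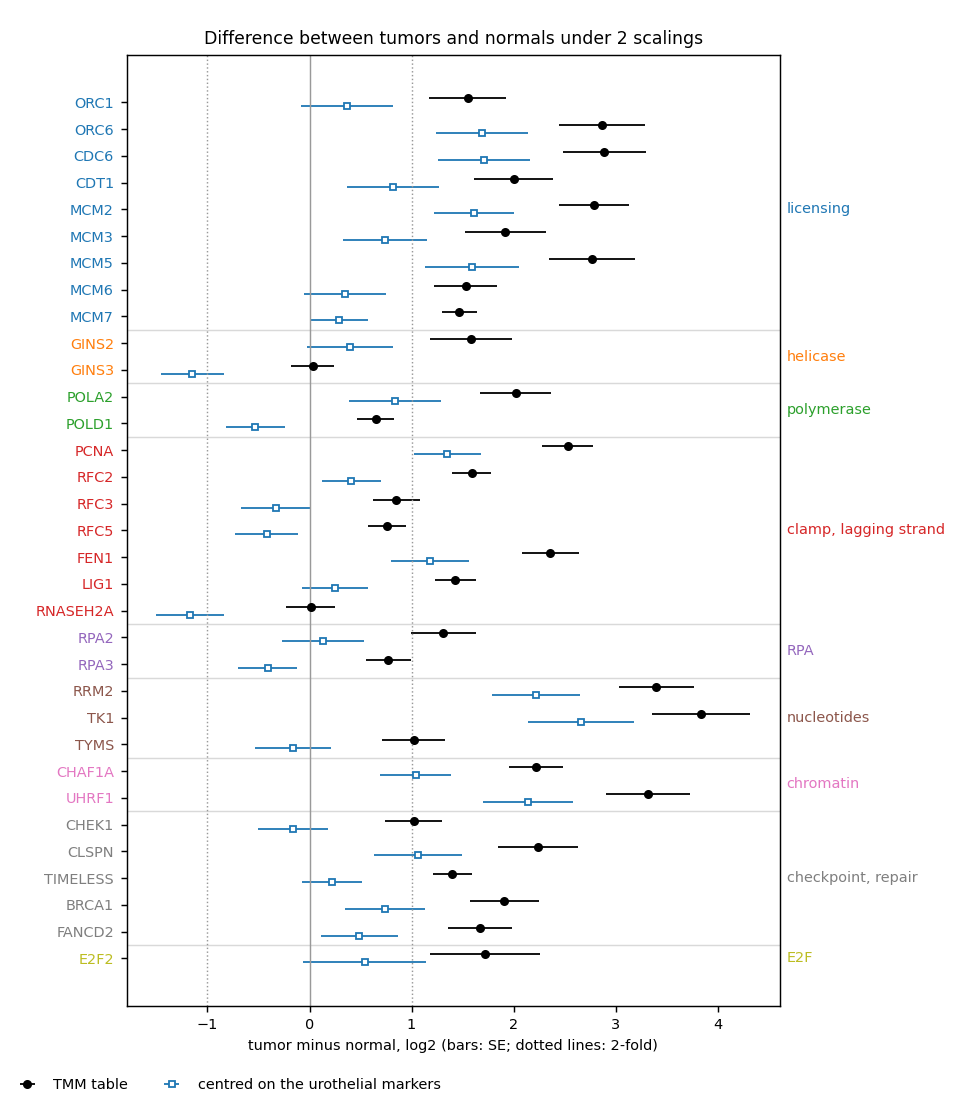
Tumor minus normal difference (log2, bars show the SE) of the 33 genes in the TMM-normalized table (black circles) and after each sample was centred on 8 urothelial markers (blue squares), with dotted lines at 2-fold. The blue values lie 1.17 to 1.18 to the left of the black ones, and TK1, RRM2 and UHRF1 remain above 2 on that axis.

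The 9 origin licensing genes of the set were all called higher, with a median difference of 2.00. This does not extend to ORC3, ORC4 and ORC5, which are outside the set and are given further below. The largest difference of the 9 was that of CDC6 (ENSCAFG00000016106), the loader that brings MCM rings to ORC. Its values were -2.28, -2.89, -3.29 and -3.27 in normals A to D and ran from -3.05 to 0.83 in the tumors, with a median of 0.06. Tumors exceeded normals by 2.89 ± 0.41 (SE; adjusted p = 1.87e-07), and 28 of 29 tumors lay above every normal; the exception was tumor 2. ORC6 (2.87), MCM5 (2.77), CDT1 (2.00) and ORC1 (1.55) were also called higher, with tumor 2 the only tumor that did not clear every normal.

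MCM2 to MCM7 join as single copies into a ring, and the differences of the 5 ring genes examined ran from 1.47 to 2.79. MCM2 (ENSCAFG00000004052) was -2.17, -2.83, -3.13 and -2.53 in the normals and -2.00 to 1.35 in the tumors (median 0.17), a difference of 2.79 ± 0.34 (adjusted p = 9.29e-09). For MCM3 (ENSCAFG00000002196) the normals were tightly placed at -1.79, -1.77, -1.62 and -1.71, and the tumors ran from -1.30 to 2.67 around a median of 0.06. It differed by 1.92 ± 0.40 (adjusted p = 7.84e-05). Neither gene overlapped between groups, and tumor 2 came nearest to the normals in both.

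MCM6 (ENSCAFG00000005143) was -1.00, -1.28, -1.26 and -1.50 in the normals and -0.58 to 1.52 in the tumors (median 0.07), which gave a difference of 1.53 ± 0.31 (adjusted p = 5.78e-05). The smallest difference of the group was that of MCM7 (ENSCAFG00000014748), at 1.47 ± 0.17 (adjusted p = 2.84e-09). Its normals were -1.42, -1.38, -1.27 and -1.33 and its tumors only -0.44 to 0.89 (median 0.04). MCM7 was thus the steadiest of the ring genes, with an SD over the tumors of 0.32 that was higher than that of 13.6% of the genes tested, whereas the SD of MCM5 was 0.82, above 62.9%.

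Of the helicase activators, GINS2 rose and GINS3 did not pass the test. Both encode parts of the GINS complex that binds the MCM ring. GINS2 (ENSCAFG00000019924) was -0.93, -1.27, -1.82 and -1.45 in the normals and -1.76 to 1.70 in the tumors (median 0.11), a difference of 1.58 ± 0.40 (adjusted p = 0.000864) with 26 of 29 tumors above every normal. GINS3 (ENSCAFG00000008495) was -0.12, 0.22, -0.28 and 0.19 in the normals and -0.67 to 0.96 in the tumors (median 0.00). Its groups overlapped almost fully, and the difference was 0.03 ± 0.21 (adjusted p = 0.901).

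Among the polymerase genes, POLA2, the second subunit of the polymerase that lays down primers, rose without overlap. POLA2 (ENSCAFG00000013677) was -1.54, -1.85, -1.85 and -2.18 in the normals and -0.81 to 2.25 in the tumors (median 0.06), a difference of 2.02 ± 0.35 (adjusted p = 5.56e-06). POLD1 (ENSCAFG00000002937), the catalytic subunit of the lagging strand polymerase, was -0.43, -1.14, -0.62 and -0.40 in the normals and -0.64 to 0.60 in the tumors (median 0.03). Its difference of 0.65 ± 0.18 (adjusted p = 0.00149) was under 2-fold, and 26 of 29 tumors lay above every normal.

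The sliding clamp and lagging strand genes split, with 4 of 7 called higher and a median difference of 1.43. PCNA (ENSCAFG00000006030), the clamp itself, was -2.31, -2.57, -2.26 and -2.58 in the normals and -0.88 to 1.03 in the tumors (median 0.16). The groups were far apart, with a difference of 2.53 ± 0.25 and the lowest adjusted p of the 33 genes (4.17e-11). FEN1 (ENSCAFG00000030542), the nuclease that trims Okazaki fragments, was -1.90, -2.77, -1.83 and -2.30 in the normals and -1.02 to 1.05 in the tumors (median 0.18), a difference of 2.36 ± 0.28 (adjusted p = 3.95e-09). LIG1 (ENSCAFG00000004046), the ligase that seals them, was -1.22, -1.40, -1.33 and -1.37 in the normals and -0.84 to 1.12 in the tumors (median 0.06), a difference of 1.43 ± 0.20 (adjusted p = 1.02e-07). All 3 were clear of the normals in every tumor.

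RFC proteins open the clamp and set it on DNA. RFC2 (ENSCAFG00000011962) was -1.69, -1.42, -1.38 and -1.60 in the normals and -0.45 to 1.22 in the tumors (median 0.03), with a difference of 1.59 ± 0.19 (adjusted p = 2.75e-09). RFC3 (0.85 ± 0.23) and RFC5 (0.76 ± 0.19) passed the adjusted p but not 2-fold. RNASEH2A (ENSCAFG00000017159), which helps remove RNA primers and stray ribonucleotides, was -0.36, -0.27, 0.13 and 0.59 in the normals and -0.91 to 0.91 in the tumors (median 0.00). With 26 of 29 tumors at or below the highest normal, its difference was the smallest of the set, 0.01 ± 0.24 (adjusted p = 0.962).

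RPA coats single-stranded DNA behind the helicase. RPA2 (ENSCAFG00000011979) was -1.24, -1.12, -1.27 and -1.00 in the normals and -0.89 to 2.11 in the tumors (median 0.11), a difference of 1.31 ± 0.32 (adjusted p = 0.000511) with a narrow gap between the groups. RPA3 (ENSCAFG00000000261) was -0.61, -0.82, -0.41 and -1.07 in the normals and -0.94 to 1.02 in the tumors (median 0.01). It stayed under 2-fold, at 0.77 ± 0.22 (adjusted p = 0.00247), and 4 tumors fell among the normals.

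The largest differences were those of TK1 and RRM2, which serve deoxynucleotide supply, and of UHRF1, which acts on chromatin behind the fork. Other genes of these roles differed by less, with TYMS at 1.02 and CHAF1A at 2.22. TK1 (ENSCAFG00000005294), the cytosolic thymidine kinase of S phase, was -2.50, -4.22, -4.84 and -3.36 in the normals and -2.43 to 2.08 in the tumors (median 0.15). The difference of 3.84 ± 0.48, or 14.3-fold, was the largest of the set (adjusted p = 1.29e-08). RRM2 (ENSCAFG00000003409), the S phase subunit of ribonucleotide reductase, was -2.57, -3.51, -4.01 and -3.40 in the normals and -2.50 to 1.04 in the tumors (median 0.13), a 10.6-fold difference (3.40 ± 0.37, adjusted p = 6e-10). In both genes all tumors lay above all normals, but tumor 2 cleared normal A only narrowly. TYMS (ENSCAFG00000018341), thymidylate synthase, was -1.21, -0.73, -0.90 and -0.73 in the normals and -1.27 to 1.47 in the tumors (median 0.10). Its difference of 1.02 ± 0.31 (adjusted p = 0.00368) lay at the edge of 2-fold, and 3 tumors did not clear every normal, of which tumor 2 lay below all 4. Without normal A the TYMS difference was 0.91, under 2-fold.

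UHRF1 (ENSCAFG00000018934), which carries DNA methylation over to the new strand, was -2.36, -3.36, -3.36 and -3.61 in the normals and -2.60 to 1.38 in the tumors (median 0.09). It differed by 3.32 ± 0.41 (adjusted p = 9.15e-09), with tumor 2 below normal A. CHAF1A (ENSCAFG00000019070), a subunit of the histone chaperone CAF-1, was -1.94, -2.27, -2.29 and -2.15 in the normals and -1.72 to 0.87 in the tumors (median 0.01), a difference of 2.22 ± 0.26 (adjusted p = 3.61e-09) without overlap.

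All 5 checkpoint and repair genes were called higher, with a median difference of 1.67. CLSPN (ENSCAFG00000003539), the adaptor that links a stalled fork to the kinase CHEK1, was -1.46, -2.49, -2.76 and -2.20 in the normals and -3.01 to 1.11 in the tumors (median 0.03), a difference of 2.24 ± 0.39 (adjusted p = 5.63e-06). TIMELESS (ENSCAFG00000000124), which holds helicase and polymerase together, was -1.13, -1.37, -1.25 and -1.86 in the normals and -0.67 to 0.79 in the tumors (median 0.05), a difference of 1.40 ± 0.19 (adjusted p = 6.49e-08). Its tumors all cleared the normals, whereas for CLSPN tumor 2 lay below all 4. CHEK1 (ENSCAFG00000010551) was -0.68, -1.09, -1.14 and -1.02 in the normals and -1.27 to 1.20 in the tumors (median 0.04). At 1.02 ± 0.28 (adjusted p = 0.00172) it only just reached 2-fold. It fell under 2-fold without normal B (0.98) and without normal C (0.96). BRCA1 (1.91 ± 0.34) and FANCD2 (1.67 ± 0.31), which repair and shield forks, each had 28 of 29 tumors above every normal.

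E2F2 (ENSCAFG00000013273), a transcription factor that drives S phase genes, was -1.47, -1.24, -2.73 and -1.47 in the normals and -3.78 to 1.93 in the tumors (median 0.15). It was called higher by 1.72 ± 0.54 (adjusted p = 0.00541). With an SD of 1.08 over the tumors, above that of 78.5% of genes, it was the most variable of the 33 genes.

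Values were also set side by side for subunits that work together. The difference between a pair of genes inside a sample does not depend on how samples were scaled, and 6 such pairs, chosen after the values were seen, are described here with no test. RRM2 minus RRM1, the large subunit of the same enzyme, was -2.85, -3.33, -3.68 and -3.39 in the normals and -2.50 to 1.14 in the tumors (median 0.03), so every tumor had more RRM2 for its RRM1 than any normal. RRM1 itself differed by 0.11 ± 0.22 (adjusted p = 0.655) in the TMM-normalized table; this turned to -0.19 in the DESeq-normalized table and to -1.07 (adjusted p = 0.00362) on the urothelial scale, or -0.72 (adjusted p = 0.074) on that scale without normal D.

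ORC6 minus ORC4 was -2.62, -3.78, -4.23 and -4.32 in the normals and -3.38 to 1.88 in the tumors (median 0.05), with tumor 2 the only tumor among the normals. The other ORC subunits in the table were not called higher. ORC3 differed by -0.01 ± 0.21 (adjusted p = 0.978), ORC5 by 0.29 ± 0.15 (adjusted p = 0.0896) and ORC4 by -0.89 ± 0.21 (adjusted p = 0.000294), lower in tumors but by less than 2-fold. ORC4 was past 2-fold in the DESeq-normalized table (-1.19), on the urothelial scale (-2.07) and without normal A (-1.06, adjusted p = 0.000177). These 3 subunits were chosen after their values were seen.

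MCM2 minus MCM7 was -0.75, -1.45, -1.86 and -1.20 in the normals and -1.56 to 0.78 in the tumors, and 27 of 29 tumors lay above every normal. GINS2 minus GINS3 was -0.81, -1.48, -1.55 and -1.64 in the normals and -1.73 to 1.12 in the tumors, again with 27 of 29 above. RFC2 minus RFC5 was -1.05, -0.42, -0.74 and -0.90 in the normals and -0.57 to 0.80 in the tumors, with 27 of 29 above. Only in RPA2 minus RPA3 did the groups mix broadly, at -0.63, -0.30, -0.86 and 0.07 in the normals and -1.66 to 2.09 in the tumors, with 17 of 29 above.

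From a list of 59 further replication genes, 41 were in the table, of which 22 were called higher and 0 lower (10.7% of all genes were called higher), with a median difference of 1.08. CHTF18, part of an alternative clamp loader, had the largest difference (2.41 ± 0.33, adjusted p = 1e-07). RNASEH2C, a partner of RNASEH2A, had the lowest (-1.94 ± 1.81, adjusted p = 0.339) and stood at its shared lowest value in 13 tumors. All 9 mitosis genes in the table were called higher, with a median of 2.75, from AURKA (1.54 ± 0.30, adjusted p = 3.48e-05) to TOP2A (3.96 ± 0.41, adjusted p = 1.57e-10).

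The tumors varied in these genes about as much as in others, with a median SD over the tumors of 0.62 for the 33 genes and 0.64 for all genes tested. The median over the 33 genes was -1.43, -1.68, -1.82 and -1.60 in normals A to D, and normal A was the highest normal in 19 genes. Among tumors this median ran from -1.27 to 0.99. Tumor 2 was the lowest tumor in 23 of the 33 genes and lay at or below the highest normal in 17, and its median of -1.27 was far from that of the next tumor (-0.47). It was also the lowest tumor in the mitosis genes (mean -1.87), while its muscle mean was -0.61. Its urothelial mean (-0.29) was lower than that of 25 tumors, and its mean of 2 nerve markers (1.36) was the highest of all tumors. Tumor 2 had 7036 genes at a shared lowest value, within the tumor range of 3699 to 8175. The part of these in its low values was not tested. With tumor 2 set aside, a choice made after the data were seen, 25 genes had every tumor above every normal (8.09% of all genes), and 27 were called higher (10.8% of all genes). At the other end, tumor 18 was the highest in 14 of the 33 genes and the highest in the mitosis genes (1.33), with an endothelial marker mean (-2.17) that was the lowest of all tumors. Its smooth muscle mean (-1.15) was lower than that of 27 tumors and its fibroblast mean (-1.40) lower than that of 24, while its urothelial mean was 0.27. The part of these in its high values was not tested.

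**Figure D3:**
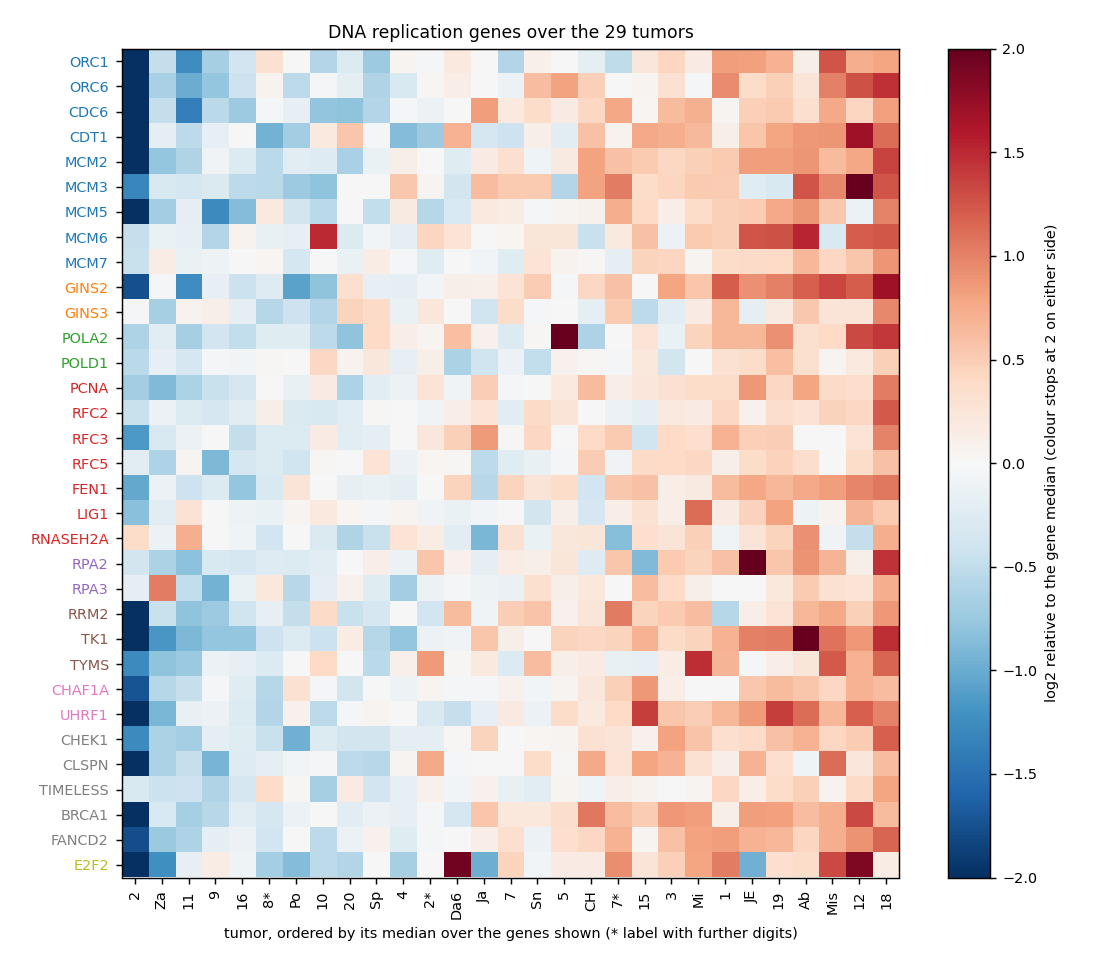
Log2 values of the 33 genes (rows, in order of role) in the 29 tumors (columns, ordered by their median over these genes from lowest to highest), where blue is below and red above the gene's median over all 33 samples and the colour stops at 2 units on either side. Tumor 2 at the left is low in most rows, tumor 18 at the right is high in most, and the rows of RNASEH2A, GINS3 and RPA3 follow that order loosely.

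Most replication genes rose and fell together from tumor to tumor. Pearson's r over the tumors had a median of 0.58 over the 528 pairs of members and was positive in 521 of them, against a median of 0.0030 over all pairs of tested genes; without tumor 2 the members' median was 0.52. The tightest pair within a role was UHRF1 with CHAF1A (r = 0.93, and 0.87 without tumor 2). ORC6 had the highest median r with the other members (0.75), and RNASEH2A the lowest (0.13), followed by GINS3 (0.33) and RPA3 (0.36). This order rested on tumor 2: without it TK1 (0.68) was highest and ORC6 had 0.64, and POLD1 (0.33) and LIG1 (0.35) came next after RNASEH2A (0.20), which stayed lowest. All of these points share libraries and scaling, and they are given as a description.

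Cycling cells were gauged by TOP2A, the topoisomerase of dividing cells, because MKI67 was not found in the table as held here. TOP2A was -3.10, -3.95, -4.70 and -4.26 in the normals and -2.66 to 1.25 in the tumors (median 0.10), with tumor 2 lowest and tumor 18 highest. Over the 29 tumors, 23 of 33 members were positively correlated with TOP2A (permutation test, adjusted p of at most 0.05 over 24088 genes), against 0.971% of all genes, and 0 were negatively correlated. The median r was 0.76 over the members and -0.049 over all genes. FANCD2 had the highest Pearson's r (r = 0.92, Spearman's rho = 0.86, both with permutation p = 1e-05, the smallest the resamples can give; adjusted p = 0.00193 for r and 0.0028 for rho). MCM2 (r = 0.90, rho = 0.83) and TK1 (r = 0.88, rho = 0.84) came next, followed by CHEK1 and CDC6 (r = 0.88 in both); by rho CHEK1 was level with FANCD2 (0.86). Without tumors 2 and Za, the farthest from the TOP2A median, r was 0.86 for CHEK1, FANCD2 and GINS2 and 0.81 for MCM2 and TK1, with permutation adjusted p = 0.003 for each. In that setting 19 members passed, against 1.97% of all genes. UHRF1 (r from 0.81 to 0.59, permutation adjusted p = 0.0513), CHAF1A (0.78 to 0.53, adjusted p = 0.0871), ORC1 (0.76 to 0.57, adjusted p = 0.0603), CDT1 (0.69 to 0.53, adjusted p = 0.0859), FEN1 (0.66 to 0.57, adjusted p = 0.0573) and E2F2 (0.69 to 0.34, adjusted p = 0.342) no longer passed, and RPA2 and RPA3 now did.

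RNASEH2A (r = 0.059, permutation adjusted p = 0.952), RPA3 (r = 0.27, adjusted p = 0.614), POLD1 (r = 0.42, adjusted p = 0.341) and MCM6 (r = 0.43, adjusted p = 0.329) had the lowest r. For RPA3 this rested on few tumors: without tumors 2 and Za, of which Za had the highest RPA3, r was 0.64 (permutation adjusted p = 0.02). POLA2 (0.45), GINS3 (0.50), RFC5 (0.51), MCM7 (0.55), LIG1 (0.55) and RPA2 (0.63) also missed the threshold. POLA2, MCM6, MCM7, LIG1 and RPA2 were above every normal in every tumor, but their relation to TOP2A among tumors did not pass by Pearson's r. For RPA2 it passed by Spearman's rho (0.81, permutation adjusted p = 0.0028), and MCM7 and POLA2 passed when CDK1 was the marker (permutation adjusted p = 0.0181 and 0.0287). CHEK1 had the reverse layout, with a difference barely at 2-fold and one of the highest r values. Without tumor 2, 20 members passed, against 1.65% of all genes. Those that no longer passed were ORC1 (r from 0.76 to 0.57, permutation adjusted p = 0.0598), CDT1 (0.69 to 0.52, adjusted p = 0.0999), MCM3 (0.63 to 0.57, adjusted p = 0.0605), FEN1 (0.66 to 0.55, adjusted p = 0.0711) and E2F2 (0.69 to 0.45, adjusted p = 0.175). GINS3 (0.50 to 0.64, permutation adjusted p = 0.0173) and RPA2 (0.63 to 0.71, adjusted p = 0.0043) now passed. Among the members with low r, RNASEH2A went from 0.059 to 0.20 (permutation adjusted p = 0.593) and LIG1 from 0.55 to 0.35 (adjusted p = 0.308).

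**Figure D4:**
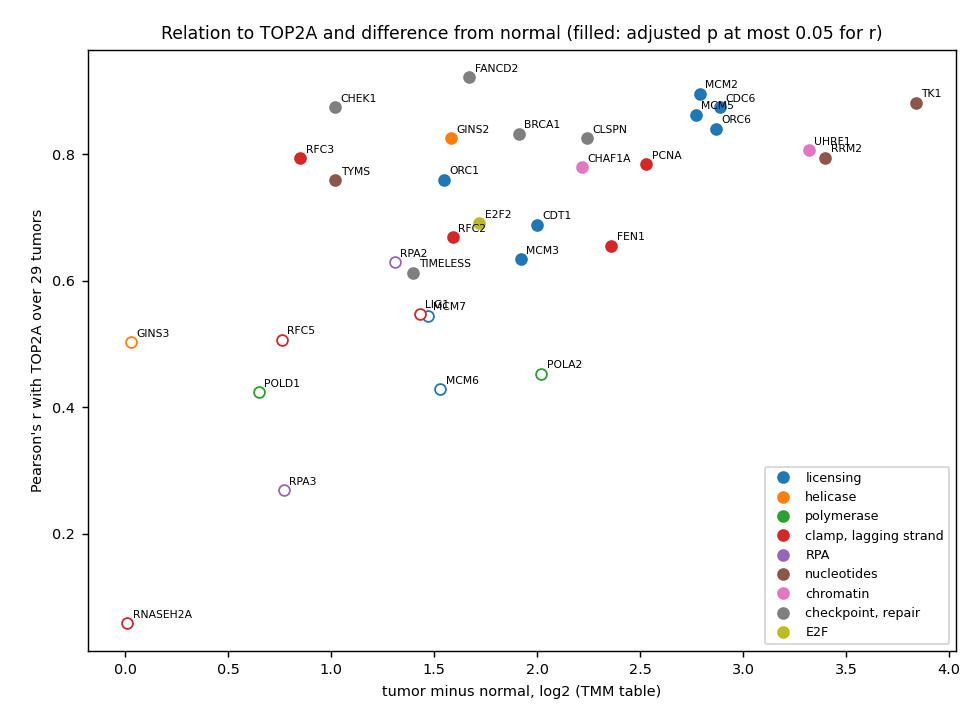
Pearson's r with TOP2A over the 29 tumors (vertical axis) against the tumor minus normal difference on the log2 scale (horizontal axis), 1 point for each of the 33 genes, coloured by role and filled where the adjusted permutation p for r is at most 0.05. TK1, RRM2, UHRF1, CDC6, ORC6, MCM2 and MCM5 are at the upper right, and RNASEH2A is at the lower left.

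The study sorted these tumors into luminal and basal kinds, so the members were also set against the first principal component of its basal and luminal signature genes, each gene left out of its own component. Of that signature, 639 genes were found in the table as held here, and its other genes were not analysed here. The study drew the signature from genes known to part luminal from basal breast cancer in humans. It kept those that differed between normal bladder and iUC in these same samples, and MCM3, LIG1 and CHAF1A are among them. The component was signed so that luminal genes fall along it. Here 0 of 33 members passed the threshold (permutation test adjusted over 24089 genes), whereas 5.96% of all genes did. At an unadjusted permutation p below 0.05 there were 7 of 33 members by Pearson's r, against 18.3% of all genes, and 10 by Spearman's rho, against 17.5%. All 33 values of r were below 0, from -0.49 to -0.023, with a median of -0.23, against a median of 0.012 over all genes. Because most members rise and fall together, these 33 signs are not 33 separate observations. Which member came first depended on the measure. By Pearson's r it was MCM7 (r = -0.49, rho = -0.42, permutation p = 0.00806 for r and 0.0255 for rho, adjusted p = 0.096 and 0.198). By Spearman's rho it was TYMS (rho = -0.53, r = -0.39, permutation p = 0.00335 for rho and 0.0369 for r, adjusted p = 0.0562 and 0.23), and the rho of CDT1 (-0.50), ORC6 (-0.47) and POLD1 (-0.44) was also farther from 0 than that of MCM7. Without tumors 7 and Po, the farthest on the component, r was -0.42 for GINS3, -0.39 for POLD1 and TYMS and -0.38 for MCM7 (permutation adjusted p = 0.253, 0.327, 0.336 and 0.351). Among its p53 signature genes, the study reported FEN1 and UHRF1 as enriched in luminal tumors. With all tumors kept, their r was -0.18 and -0.29, on the luminal side but not past the threshold (permutation adjusted p = 0.693 and 0.447). The study's report rested on clustering by subtype, whereas no subtype label of a tumor was used here.

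The step from the highest tumor to the next was widest in MCM3, POLA2, RFC2, RPA2 and TK1. MCM3 reached 2.67 in tumor 12, with the next tumor at 1.26, POLA2 reached 2.25 in tumor 5 (next 1.42), RFC2 1.22 in tumor 18 (next 0.46), RPA2 2.11 in tumor JE (next 1.44), and TK1 2.08 in tumor Ab (next 1.48). For TK1 this step was smaller than the SD over the tumors (0.91). For each of them the neighbouring genes were examined in the same tumor. Among the 20 tested genes that lie nearest to TK1 in the RefSeq gene order (10 on each side), 12 stood at 1 or more in tumor Ab, against 5.17% of all tested genes in that tumor, and 9 had their highest tumor value there. They included BIRC5, the survivin gene (2.23), USP36 (2.26), TMC6 (2.23) and ENGASE (2.08), and the median of the 20 was 1.60. Around MCM3, by contrast, 4 of 20 neighbours reached 1 in tumor 12, against 12.5% of all tested genes, 3 had their highest tumor value there, and their median was -0.06. For POLA2 it was 1 of 20 in tumor 5 (17.8% of all genes), for RFC2 it was 0 of 20 in tumor 18 (6.97%), with 3 of 20 highest there and a median of 0.11, and for RPA2 it was 4 of 20 in tumor JE (10.5%), among them PPP1R8 (1.31), FAM76A (1.30) and XKR8 (1.18), with 3 of 20 highest there and a median of -0.43. DNA copy number was not measured here, and these genes and tumors were chosen after their values were seen. The neighbourhoods were not matched for how well their genes were detected. Around MCM3, for instance, DEFB113 and TFAP2D were 0.00 both in tumor 12 and in the median of the tumors.

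**Figure D5:**
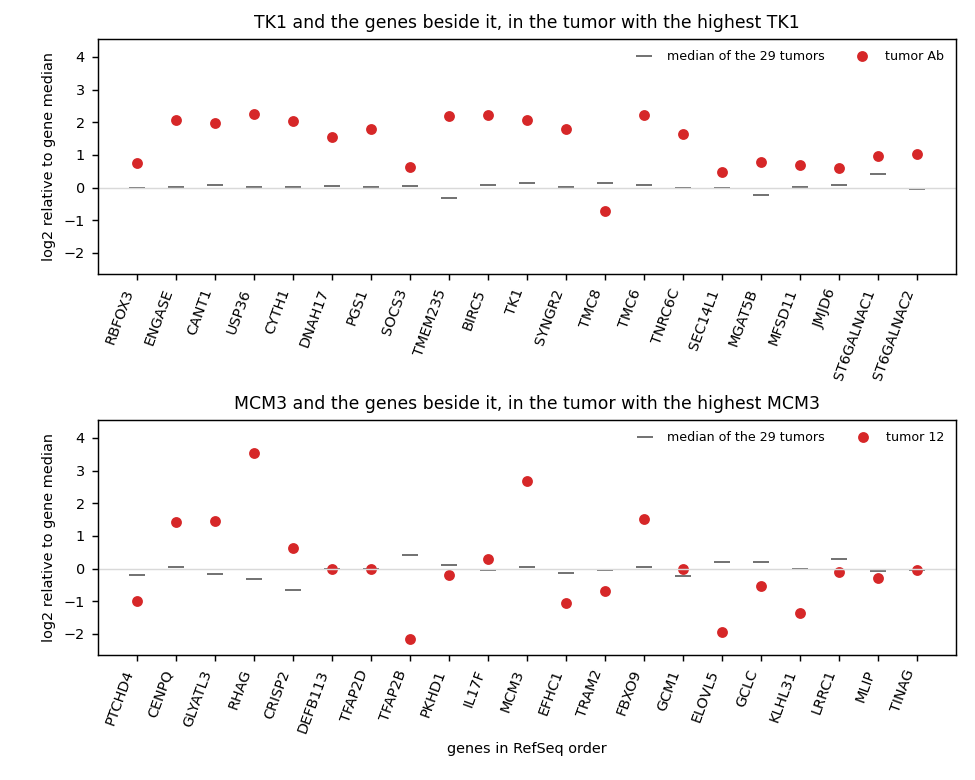
Log2 values relative to the gene median of TK1 in tumor Ab (top) and MCM3 in tumor 12 (bottom) and of the 10 tested genes on each side in RefSeq gene order (red points), with the median of the 29 tumors as grey bars. Around TK1, 12 of 20 neighbours stand at 1 or more, with TMC8 among the exceptions, whereas around MCM3 the points scatter about 0.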

How the data were processed

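RNA of 4 normal and 29 tumor samples was sequenced, and the authors aligned the reads to CanFam 3.1 with COBWeb and quantified annotated genes in Strand NGS. The 2 tables the authors deposited hold log2 values after TMM or DESeq normalization, which sit at a median of 0 in each gene; scale and centring were read from the values. Each copy used here is cut within a line, which was dropped, and genes after the cut were not analysed here. Total counts are not known, so no count test was run, and precision rests on the spread between dogs.

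Genes entered the tests when 4 or more samples exceeded the lowest value that samples share. The group comparison used limma 3.58.1 (R 4.3.3; lmFit and eBayes with a mean trend) over all genes, with Benjamini-Hochberg adjustment; a call needed an adjusted p of at most 0.05 and 2-fold. Over the tumors, Pearson's r had two-sided permutation p-values from 100000 resamples, adjusted over all genes. Scripts were tested on simulated data. Python 3.11.15 was used with numpy 2.4.6 and pandas 2.3.3.

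The genes and lists were chosen with earlier results of these data known. Values were given in full for genes whose groups did not overlap and for the largest and smallest difference of each role; from the further replication and mitosis genes, the largest, the smallest and the marker were named, and other genes are said to be chosen after their values were seen. Alternatives were the other table, other filters and variance models, each normal left out, 2 other scalings, other correlation measures, another marker (CDK1), and tumors left out. No genome of the files' build was used, so no coordinates are given. A planned promoter motif search was not run, and a RefSeq gene table of another assembly served only for gene order.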

Additional observations from a re-analysis of the deposited data

Results flagged for a closer look

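Among the 33 replication genes, only E2F2 had a normal flagged as an outlier by Dixon's ratio. Normal C stood at -2.73 and the others at -1.47, -1.24 and -1.47, so that the gap made up 0.843 of the range, above Dixon's critical value for 4 samples. Chance alone flags about 1 in 20 such groups, and 33 were tested.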

How the results depend on the processing

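The count of members called higher (27 of 33) stayed between 25 and 31, and that called lower at 0, under the DESeq-normalized table, both other limma models, both other filters, centring on genes above the lowest value and no fold threshold. It ran from 26 to 27 when each normal was left out and was 27 without tumor 2, a setting also chosen after seeing the data. Centring on the urothelial markers, chosen after seeing the data, moved it to 11 higher and 2 lower, and to 14 higher without normal D as well. On that scale 8 differences turned below 0: GINS3 (-1.15), RNASEH2A (-1.17), POLD1 (-0.53), RFC3 (-0.33), RFC5 (-0.42), RPA3 (-0.41), TYMS (-0.16) and CHEK1 (-0.16). Without normal D these were GINS3 (-0.75), RNASEH2A (-0.64), POLD1 (-0.11), RFC5 (-0.07) and RPA3 (-0.19). GINS3 and RNASEH2A, near 0 as reported, also turned in the DESeq-normalized table (-0.27 and -0.28), and ran from -0.06 to 0.10 and from -0.11 to 0.20 as each normal was left out. The count correlated with TOP2A (23) ran from 19 without tumors 2 and Za to 25 with CDK1 as the marker. The count past the threshold for the signature component was 0 under all 6 settings, and without tumor 2 r of CDC6 turned to 0.00886. No paired analysis was possible because the normals and tumors come from different dogs and share no replicate numbers. With 4 normals, every difference rests on few control samples.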
